A study of Homo sapiens with 6 samples.

Results

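Receptor tyrosine phosphatases were followed in NK-92, a human natural killer (NK) cell lymphoma line that depends on IL-2, which stably carried a control hairpin (shCtrl, 3 libraries) or a hairpin against the lncRNA gene MIR155HG (shmiR155HG, 3 libraries). Cells of both groups received IL-2 at 1000 U/mL together with IL-12 at 10 ng/mL for 12 h before poly(A) RNA was sequenced. The 10 genes described here, of 36601 in the count table, are PTPRF, PTPRS, PTPRD, PTPRC, PTPRCAP, PTPRA, PTPRE, PTPRJ, PTPRK and PTPRM. They were selected by symbol with results of this comparison known, and PTPRF, the gene that led to the family, was chosen on its fold change between these same libraries. Their differences between shCtrl and shmiR155HG cells are therefore given as a description, with no p-value, and the number that passed the threshold in the fit across all genes is given only beside the share of all genes that did. PTPRCAP is not a phosphatase but a membrane protein that binds CD45, so 9 of the 10 genes encode receptor phosphatases. The titles name shmiR155HG for all 3 knockdown libraries, whereas the treatment labels of replicates 2 and 3 read shmiR156HG and shmiR157HG. No source used here says whether the libraries of a group came from separate cultures or transductions, so p-values measure the spread between these libraries, which may be technical. The number of hairpin sequences and cell clones behind each line was likewise not given in the sources used here.

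Receptor tyrosine phosphatases span the membrane and remove phosphate from tyrosines of proteins inside the cell. Most carry a pair of phosphatase domains, of which the one nearer the membrane does nearly all of the catalysis. CD45, the product of PTPRC, is the abundant phosphatase of white blood cells and activates Src-family kinases by removing an inhibitory phosphate. LAR, the product of PTPRF, belongs with PTPRS and PTPRD to a group with immunoglobulin and fibronectin repeats that is best known from neurons and epithelia. PTPRK and PTPRM bind their own kind on neighbouring cells and act at cell contacts.

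Library totals lay between 33454786 and 39157264 counts, and 12263 genes passed the filter of more than 1 CPM (counts relative to the library total, per megacount) in at least 2 libraries. Levels below are CPM after TMM scaling, and differences are log2 fold changes of shmiR155HG over shCtrl with an approximate standard error (SE). This SE is the absolute log2 fold change divided by the square root of the F statistic of edgeR's quasi-likelihood test. MIR155HG, the target of the hairpin, was read 73, 67 and 62 times in the control replicates 1, 2 and 3, and 28, 19 and 10 times in the knockdown. Its log2 fold change was −1.78 (SE 0.43, adjusted p = 0.0045 by the quasi-likelihood test of edgeR). Of the 12 NK markers, 11 were tested, of which 1 rose (IL2RB), 3 fell (GZMB, PRF1 and NCR3) and 7 did not pass. The summed level of the 12 was 4351 to 4363 CPM in shCtrl and 3859 to 4010 CPM in shmiR155HG libraries. GZMB fell from 1194 ± 42.4 to 542 ± 29.9 CPM (SD, n = 3), a larger drop than that of the sum. IL2RB rose from 1004 ± 44.8 to 1268 ± 17.7 CPM. NCAM1, NKG7, CD2 and IL2RB were each above 275 CPM in every library, whereas TYROBP stayed between 1.10 and 2.39 CPM and CD7 between 0 and 0.876 CPM. T cell markers summed to 721 to 752 CPM in shCtrl and 790 to 829 CPM in shmiR155HG libraries, with 2 of 5 tested markers higher (CD6 and TRBC2), CD3E near 330.0 CPM and CD8B at 0. B cell markers summed to 229 to 264 and 341 to 344 CPM, nearly all of it PAX5, which rose, with MS4A1 at 0 to 5 counts. Monocyte markers summed to 13.0 to 14.5 and 8.78 to 13.1 CPM with none of 2 called by any tool run, none at an unadjusted p under 0.05 and FCN1 at 0, and fibroblast markers to 261 to 289 and 248 to 265 CPM with FN1 lower and 6 of 10 at 0. Beside these marker calls, 7.26% of all tested genes were called higher and 8.02% lower. The part of these marker shifts in the values below was not tested.

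PTPRF (ENSG00000142949; hg38 chromosome 1, 43525187 to 43623666, plus strand, 34 exons in the canonical transcript) was far higher in shmiR155HG cells. Its counts were 42, 34 and 74 in the control replicates 1, 2 and 3, or 1.08, 0.931 and 1.90 CPM. The shmiR155HG libraries held 391, 388 and 323 counts, or 10.2, 10.2 and 9.64 CPM. The shCtrl libraries spread more widely among themselves, with replicate 3 the highest, and the groups did not overlap. The means were 1.3 ± 0.520 CPM in shCtrl and 10.0 ± 0.308 CPM in shmiR155HG cells (SD, n = 3), and even the lowest shmiR155HG library stood 5.09-fold above the highest shCtrl library. The fitted log2 fold change was 2.93 (SE 0.24), or 7.65-fold, the 5th highest of the 12263 genes tested. PTPRF passed the filter in 2 of 3 shCtrl and 3 of 3 shmiR155HG libraries, so its entry into the comparison did not rest on the knockdown group alone. Without shCtrl replicate 3 the log2 fold change was 3.31, and without shCtrl replicate 2 it was 2.75, the ends of the range over libraries left out.

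**Figure D1:**
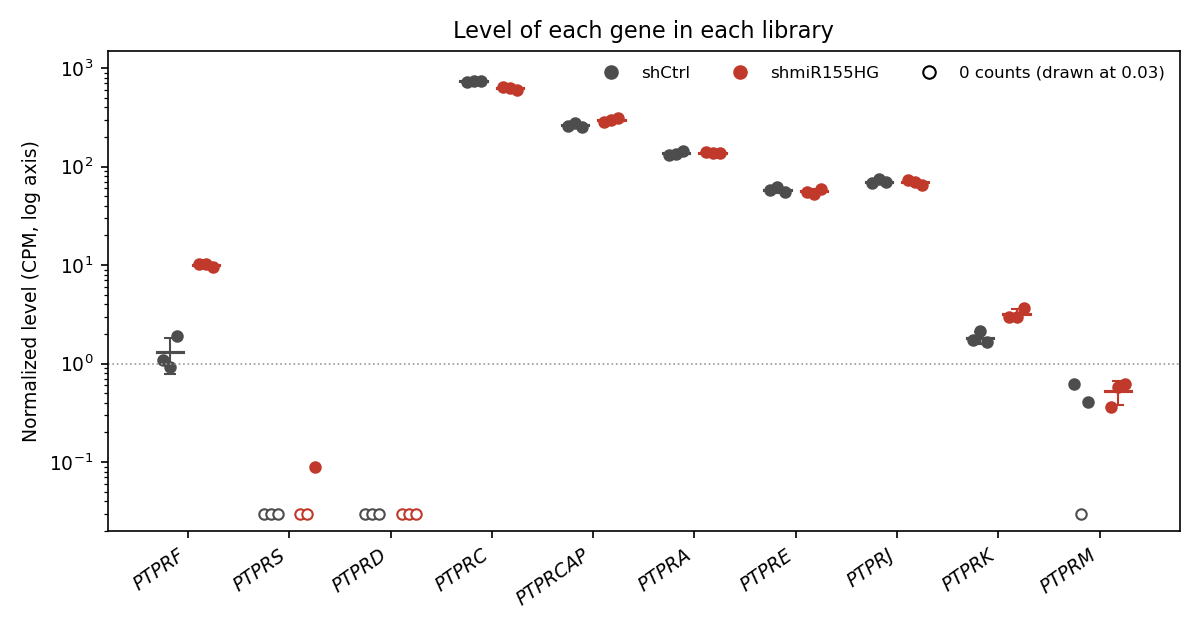
Normalized level of each of the 10 genes (vertical axis, CPM on a log scale) in the 3 shCtrl (grey) and 3 shmiR155HG (red) libraries, with the mean as a bar and the SD as whiskers where no library was at 0, and the filter limit of 1 CPM dotted. PTPRF moved from about the filter limit to near 10 CPM, while PTPRC, PTPRA, PTPRE and PTPRJ stayed between 52.9 and 745 CPM in every library.

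The promoter of PTPRF is shown because this gene had by far the largest difference of the family, and that of PTPRC, the most abundant phosphatase, for contrast. Both windows run from 250 bases before to 50 bases after the RefSeq start (GRCh38.p14), with each CG dinucleotide in capitals. The RefSeq starts of PTPRF and PTPRC each lie inside the gene as GENCODE bounds it, so other start sites exist upstream of both. Reads per gene do not say which start was used.
PTPRF promoter, chr1:43530633-43530932, plus strand: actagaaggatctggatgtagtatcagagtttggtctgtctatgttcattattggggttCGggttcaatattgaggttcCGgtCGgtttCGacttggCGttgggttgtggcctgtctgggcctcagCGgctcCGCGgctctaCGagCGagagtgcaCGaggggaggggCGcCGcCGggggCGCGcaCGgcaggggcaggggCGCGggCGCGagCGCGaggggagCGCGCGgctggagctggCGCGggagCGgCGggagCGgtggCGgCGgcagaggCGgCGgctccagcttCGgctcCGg
PTPRC promoter, chr1:198638790-198639089, plus strand: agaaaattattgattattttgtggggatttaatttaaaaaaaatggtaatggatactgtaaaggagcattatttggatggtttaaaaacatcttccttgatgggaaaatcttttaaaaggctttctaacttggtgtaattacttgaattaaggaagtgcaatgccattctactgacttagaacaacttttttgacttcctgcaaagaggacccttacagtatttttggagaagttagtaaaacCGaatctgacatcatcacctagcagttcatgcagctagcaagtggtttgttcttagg
The PTPRF window holds 37 CG dinucleotides and 68.7% G plus C, and the PTPRC window 1 CG dinucleotide and 33.7%. Over 35116 promoter windows of the same length the medians were 14 and 58.7%. Palindromic motifs of the form TTCNNNGAA, which STAT proteins can bind and which read alike on both strands, were found in 7.66% of all windows. None of the windows of the 8 members with an entry (PTPRF, PTPRC, PTPRK, PTPRD, PTPRE, PTPRM, PTPRS and PTPRA) held this motif. This says only that these letters are missing from these windows.

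PTPRS and PTPRD, the close relatives of PTPRF, were next to undetected. PTPRS had 3 counts in shmiR155HG replicate 3 and 0 in the other 5 libraries, and PTPRD had 0 counts in all 6. A count of 0 allows a level of up to 0.0766 to 0.0897 CPM in a library of this depth (3 counts per library, counting error only). No stretch of 75 bases of the canonical transcripts of PTPRF, PTPRS or PTPRD occurs in a transcript of another gene in GENCODE v44, so reads of the relatives can be told apart at that length. PTPRF also shares no exonic base with another annotated gene. Among the 3 genes of this group the difference at PTPRF thus had no counterpart that could be measured.

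To see whether the surroundings of PTPRF differed as well, 9 tested genes near it, 4 before and 5 after, were compared with the quasi-likelihood test, adjusted over all genes. Of these 9 genes, 1 rose, 1 fell and 7 did not pass, against 7.26% of all tested genes called higher and 8.02% called lower. The median log2 fold change of the 9 was 0.073, beside 0.000966 over all genes tested. KDM4A, a histone demethylase, starts 26.5 kb after PTPRF. It had 52.1, 55.2 and 48.4 CPM in shCtrl replicates 1, 2 and 3 and 55.2, 64.3 and 51.8 CPM in the shmiR155HG replicates, and the groups overlapped (log2 fold change 0.14, SE 0.075, adjusted p = 0.238 by edgeR).
The called neighbours were the farthest on the left. CDC20, an activator of the anaphase-promoting complex 162 kb before PTPRF, rose from 186 ± 7.67 to 231 ± 10.2 CPM (SD, n = 3; log2 fold change 0.31, SE 0.042, adjusted p = 5.09e-06 by edgeR). TIE1, an endothelial receptor tyrosine kinase 202 kb before PTPRF, fell from 18.0 ± 1.73 to 10.6 ± 0.805 CPM (−0.77, SE 0.13, adjusted p = 7.74e-05 by edgeR). ELOVL1, MED8, KDM4A-AS1, ST3GAL3, ARTN and AL357079.1 had values between −0.21 and 0.32, with adjusted p between 0.379 and 0.878. Within the bounds of the genes, KDM4A-AS1 overlaps KDM4A and the start of ST3GAL3 on the opposite strand. Reads of shared bases could not be told apart if counting did not use strand. Of the untested genes nearby, HYI had 0 counts in all libraries and HYI-AS1 at most 8 in any.

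**Figure D2:**
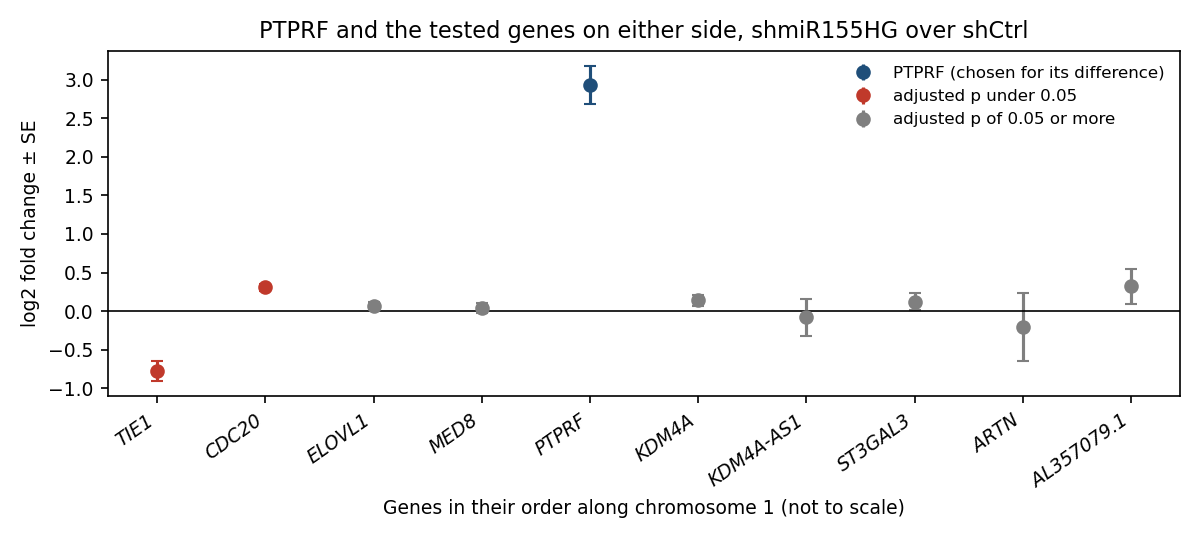
Log2 fold change of shmiR155HG over shCtrl with its SE (vertical axis) for PTPRF, 4 tested genes before it and 5 after it, in their order along chromosome 1. PTPRF stands at 2.93, whereas its neighbours lie between −0.77 and 0.32.

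PTPRF is prominent in epithelia, so 12 epithelial markers were read beside it. EPCAM, KRT19, CDH1 and ESRP1 had 0 counts in all 6 libraries, and KRT18 had at most 4 counts. The summed level of the list was 4.96 to 6.92 CPM in shCtrl and 8.29 to 11 CPM in shmiR155HG libraries. Of the 2 markers tested, KRT5 carried most of this sum, with 163, 147 and 177 counts across the control replicates 1, 2 and 3 and 307, 267 and 291 in the shmiR155HG replicates (log2 fold change 0.89, SE 0.19, adjusted p = 0.00117 by edgeR), and MUC1 had −0.32 (SE 0.51, adjusted p = 0.749). Endothelial markers summed to 0.82 to 1.87 CPM in shCtrl and 0.597 to 1.39 CPM in shmiR155HG libraries, with none of 7 tested and CDH5, KDR and TEK at 0. Whether the KRT5 difference has a part in that of PTPRF was not tested. In bulk libraries, more cells with a transcript and more transcript per cell cannot be told apart.

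By likeness to PTPRF, measured as Pearson r of log2 CPM over the 6 libraries among 12262 other genes, the leading 5 were NEK10 (0.9992), FMNL3 (0.9988), TLE3 (0.9980), AC079781.5 (0.9978) and SUN2 (0.9975). The 6 points fall into the 2 groups of libraries, so these values mainly describe a shared difference between groups. In all 5 the knockdown libraries lay above every control library, by a smaller margin than in PTPRF. NEK10, a kinase, went from 1.82, 1.72 and 2.02 CPM to 2.99, 2.94 and 2.90 CPM in replicates 1, 2 and 3. SUN2, a protein of the inner nuclear membrane, went from 320, 313 and 334 CPM to 393, 397 and 400 CPM. Like PTPRF, both had shCtrl replicate 3 as the highest of the control libraries, a likeness that the choice by correlation over these libraries favours.

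PTPRC (ENSG00000081237; hg38 chromosome 1, 198638457 to 198757476, plus strand, 33 exons) was the most abundant transcript of the family by counts and was lower in shmiR155HG cells. Its level was 723, 745 and 742 CPM in shCtrl replicates 1, 2 and 3, and 642, 621 and 600 CPM in the shmiR155HG replicates. Each knockdown library lay below each control library. The means were 737 ± 12.2 and 621 ± 20.9 CPM (SD, n = 3), a log2 fold change of −0.25 (SE 0.032), which left 84.3% of the shCtrl level. With 20114 to 28968 counts per library, sampling error was small beside the spread between libraries. The isoforms of CD45 that differ in exons near the start of the protein cannot be read from counts per gene.

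PTPRCAP (ENSG00000213402; hg38 chromosome 11, 67435510 to 67437682, minus strand, 2 exons), whose product binds CD45 in lymphocytes, went the other way. It had 259, 275 and 254 CPM in shCtrl replicates 1, 2 and 3 and 285, 300 and 314 CPM in the shmiR155HG replicates. The groups did not overlap, but the lowest ratio between a knockdown and a control library was 1.03. The log2 fold change was 0.19 (SE 0.040), or 1.14-fold. All 907 exonic bases of PTPRCAP also lie in exons of CORO1B on the same strand in GENCODE v44, and 92.2% of its 75-base stretches occur in transcripts of other genes, CORO1B most of all. Part of the counts may therefore belong to either gene. CORO1B, an actin-binding coronin, was at 42.5 ± 3.67 CPM in shCtrl and 39.1 ± 3.69 CPM in shmiR155HG cells (SD, n = 3; log2 fold change −0.12, SE 0.082, adjusted p = 0.358 by edgeR), and its groups overlapped.

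PTPRA and PTPRE, a related pair with short extracellular parts that act on Src-family kinases, differed between the groups by less than the SD of the shCtrl libraries. PTPRA (hg38 chromosome 20, 2873420 to 3039076) had 132, 134 and 146 CPM in shCtrl replicates 1, 2 and 3 and 139, 137 and 139 CPM in the shmiR155HG replicates. The 3 knockdown libraries lay inside the range of the controls, with a log2 fold change of 0.011 (SE 0.046). Its sign changed when single libraries were left out (−0.013 to 0.058). PTPRE (chromosome 10, 127907103 to 128085855) had 57.3, 62.8 and 55.1 CPM against 55.2, 52.9 and 59.6 CPM, a log2 fold change of −0.063 (SE 0.068). Its groups overlapped as well, and with 1 library left out the value ran from −0.11 to −0.0070.

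PTPRJ (chromosome 11, 47980425 to 48170839), a phosphatase with a single catalytic domain and a long row of fibronectin repeats, had 67.7, 74.2 and 69.3 CPM in shCtrl replicates 1, 2 and 3. The shmiR155HG replicates had 73.1, 69.4 and 65.3 CPM. The ranges overlapped, with a log2 fold change of −0.022 (SE 0.062) whose sign changed when single libraries were left out (−0.063 to 0.020).

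PTPRK (ENSG00000152894; hg38 chromosome 6, 127968785 to 128520616, minus strand), an adhesion-type phosphatase, was low in both groups and higher in shmiR155HG cells. Its counts in the control replicates 1, 2 and 3 were 67, 78 and 64, or 1.72, 2.14 and 1.64 CPM. The shmiR155HG replicates had 114, 113 and 123 counts, or 2.97, 2.96 and 3.67 CPM. No knockdown library reached down to a control library, and the lowest ratio between them was 1.39. The log2 fold change was 0.80 (SE 0.30), or 1.75-fold. PTPRK-AS1 overlaps 1.94% of its exonic length on the opposite strand. PTPRM (chromosome 18, 7566782 to 8406861), its relative, had 24, 0 and 16 counts in the shCtrl replicates and 14, 22 and 21 in the shmiR155HG replicates. This range of 0 to 0.627 CPM kept PTPRM below the filter, and the groups overlapped.

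Of the 10 genes, 7 passed the filter and PTPRS, PTPRD and PTPRM did not. In the fit across all genes, 2 of the 7 passed the threshold as higher (PTPRF and PTPRCAP) and 1 as lower (PTPRC), where 7.26% of all tested genes were called higher and 8.02% lower. PTPRK was not called there, whereas DESeq2 and the exact test of edgeR called it higher. PTPRF, PTPRCAP and PTPRK were higher and PTPRC lower with no overlap between groups, as were 15.2% and 15.6% of all genes tested. Since the comparison itself led to this choice of genes, these counts are no test of them and nothing is read from them.

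**Figure D3:**
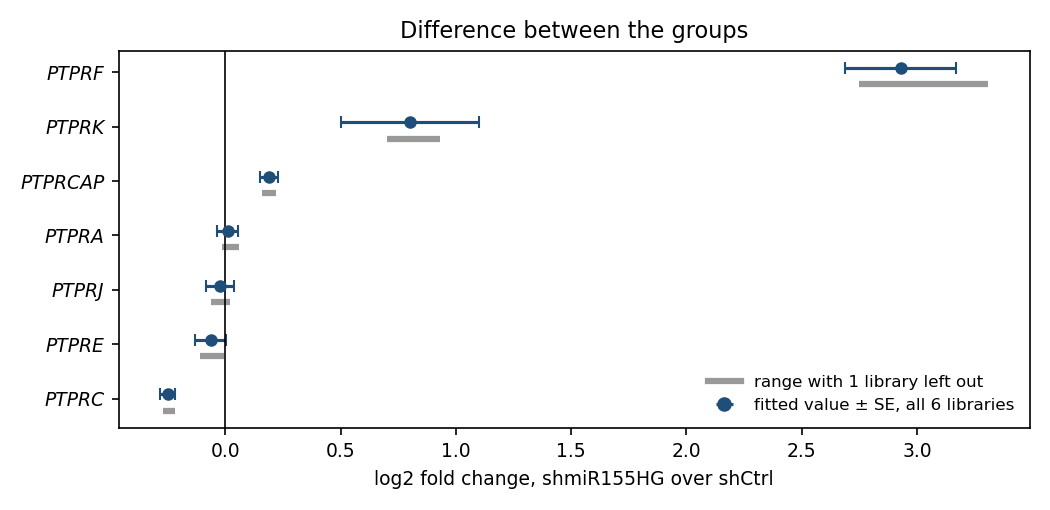
Log2 fold change of shmiR155HG over shCtrl (horizontal axis) of the 7 genes above the filter, as the fitted value with its SE from all 6 libraries (blue) and as the range with 1 library left out (grey). PTPRF at 2.93 and PTPRK at 0.80 stand to the right, PTPRA, PTPRJ and PTPRE lie at 0 within 1 SE, and PTPRC stands at −0.25.

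Compared per length, as CPM per kb of exonic sequence, PTPRCAP was highest at 280 to 346 over the 6 libraries, followed by PTPRC at 38.9 to 48.3 and PTPRA at 33.8 to 37.2. The distance between PTPRC and PTPRA depended on the length used, since with the canonical transcript in place of all exons PTPRC stood at 112 to 139 and PTPRA at 39.5 to 43.4. PTPRJ at 6.71 to 7.62 and PTPRE at 4.73 to 5.61 came next, and with the canonical length their order turned, with PTPRE at 10.0 to 11.9 and PTPRJ at 8.32 to 9.45. Neighbours in this order down to PTPRE did not overlap. PTPRF and PTPRK exchanged places between the groups. In shCtrl libraries PTPRF stood at 0.0869 to 0.177 CPM per kb, below PTPRK at 0.184 to 0.239, and in shmiR155HG libraries PTPRF stood at 0.9 to 0.95, above PTPRK at 0.332 to 0.411. PTPRM stood at 0 to 0.0633, with 14 to 24 counts in 5 libraries and 0 in shCtrl replicate 2. PTPRS and PTPRD, with at most 3 counts, lay below it in the other 5 libraries, and the pooled ranges met only through the library at 0.
Of the 20 receptor phosphatase genes in the table, PTPRC made up 49.7% ± 0.651 of the summed level per length in shCtrl cells and 45.0% ± 0.837 in shmiR155HG cells (SD, n = 3). PTPRA made up 36.5% ± 1.22 and 39.5% ± 0.598. With the canonical length these shares became 68.9% ± 0.42 and 64.7% ± 0.864 for PTPRC and 20.5% ± 0.832 and 23.0% ± 0.469 for PTPRA, so their size rests on the length while the order of the groups was the same. The larger share of PTPRA came with a smaller sum, while PTPRA itself had a log2 fold change of 0.011 (SE 0.046). Per kb of all exons the sum was 93.6 to 98.2 CPM in shCtrl and 88.4 to 91.4 CPM in shmiR155HG libraries. PTPRF remained a minor transcript, at 0.126% ± 0.0478 of the sum in shCtrl and 1.04% ± 0.0269 in shmiR155HG cells, or 0.0843% ± 0.0326 and 0.723% ± 0.0163 with the canonical length. With either length PTPRC and PTPRA made up most of the sum in both groups.

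Because MIR155HG is the precursor of miR-155, the 3′UTRs of the genes were searched for its target letters. The mature miR-155-5p is shown with its seed (bases 2 to 8) in capitals, as listed by RefSeq at chr21:25573983-25574006 on the plus strand.
miR-155-5p: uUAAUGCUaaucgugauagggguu
A match to the seed, AGCATTA on the transcript strand, was absent from the canonical 3′UTRs of all 7 genes above the filter, which were 223 to 3477 bases long. Of 10762 tested genes with a 3′UTR in GENCODE v44, 11.9% held it. Among the 10 genes only PTPRD held this site, 1 copy in 3628 bases, and PTPRD had no counts. The absence of these letters says nothing about other kinds of sites.

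The remaining 11 receptor phosphatase genes were low throughout. PTPRR was the only gene of them above the filter, with 62, 34 and 46 counts across the control replicates 1, 2 and 3 and 31, 21 and 46 in the shmiR155HG replicates (log2 fold change −0.45, SE 0.43, adjusted p = 0.561 by edgeR, with 0 calls by the other tools and 0 at an unadjusted p under 0.05). PTPRU, a relative of PTPRK, had 2, 4 and 17 counts against 43, 9 and 21, with overlap, and PTPRG had 24, 17 and 62 against 32, 37 and 18. PTPRO and PTPRT were at 0 in all libraries. The summed level of the 11 genes was 1.86 to 3.77 CPM in shCtrl and 2.28 to 3.85 CPM in shmiR155HG libraries. PTPRR was not called, and the others lay below the filter, so whether they rose like PTPRF was not tested.

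Among the 17 non-receptor tyrosine phosphatases, 14 were tested, of which 2 rose, 1 fell and 11 did not pass, with a median log2 fold change of 0.068. The shares of all tested genes were 7.26% called higher and 8.02% called lower. PTPN7, a phosphatase of lymphocytes that acts on MAP kinases, rose from 346 ± 9.50 to 442 ± 5.29 CPM (SD, n = 3; log2 fold change 0.36, SE 0.034, adjusted p = 1.23e-08 by edgeR). PTPN18 rose by 0.23 (SE 0.062, adjusted p = 0.0115), a call lost without shCtrl replicate 1, shmiR155HG replicate 1 or shmiR155HG replicate 2, where the adjusted p was 0.0568, 0.0571 and 0.0548. PTPN1, which dephosphorylates JAK kinases and the insulin receptor, fell from 124 ± 4.50 to 107 ± 2.10 CPM (−0.21, SE 0.047, adjusted p = 0.00211 by edgeR). PTPN11, the phosphatase SHP-2, had −0.088 (SE 0.036, adjusted p = 0.104), and PTPN22 had −0.049 (SE 0.050, adjusted p = 0.581). PTPN9 and PTPN4 had 0.075 (SE 0.052, adjusted p = 0.384) and 0.062 (SE 0.067, adjusted p = 0.611).

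The Src-family kinases and their regulators, on which CD45, PTPRA and PTPRE act, gave 3 genes that rose, 1 that fell and 3 that did not pass among the 7 of 10 that were tested, and the median log2 fold change was 0.018. Across all tested genes, 7.26% were called higher and 8.02% lower. The list was chosen with earlier results of these data known, so nothing is read from this count. LCK, the kinase that CD45 activates in lymphocytes, rose from 143 ± 6.46 to 163 ± 2.88 CPM (SD, n = 3; 0.19, SE 0.043, adjusted p = 0.00306 by edgeR). LYN rose by 0.19 (SE 0.044, adjusted p = 0.00334) and CSK, which adds the phosphate that CD45 removes, by 0.17 (SE 0.040, adjusted p = 0.00349). PAG1, the membrane anchor of CSK, fell from 158 ± 5.45 to 121 ± 3.64 CPM (−0.39, SE 0.045, adjusted p = 3.03e-07 by edgeR). FYN, FGR and YES1 did not pass, at 0.018 (SE 0.044, adjusted p = 0.840), 0.0059 (SE 0.038, adjusted p = 0.946) and −0.16 (SE 0.21, adjusted p = 0.693).

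Known partners of the LAR group could be called only above the filter, which 3 of 31 extracellular and 10 of 18 intracellular genes passed. Beside them, 7.26% of all tested genes were called higher and 8.02% lower, and nothing is read from the counts of calls. Of 31 extracellular partners, 14 had 0 counts in all libraries and 3 passed the filter, whose median log2 fold change was −0.35. HSPG2, the heparan sulfate proteoglycan perlecan, fell from 17.4 ± 2.02 to 13.3 ± 2.22 CPM (SD, n = 3; −0.39, SE 0.13, adjusted p = 0.0457 by edgeR). This call was lost without shCtrl replicate 2, shCtrl replicate 3 or any shmiR155HG library, with adjusted p up to 0.252. With edgeR's filterByExpr as the filter on low counts the call was lost as well (adjusted p = 0.0645 by edgeR). AGRN and CSPG4 had values of −0.35 (SE 0.41, adjusted p = 0.648) and 0.74 (SE 0.43, adjusted p = 0.275). Of 18 intracellular partners, 10 were tested and none was called, with a median of 0.083. PPFIA1, a liprin that binds the second phosphatase domain of LAR, stood at 147 ± 6.64 and 157 ± 4.44 CPM (0.095, SE 0.044, adjusted p = 0.164). CTNNB1, the gene of β-catenin, stood at 203 ± 6.37 and 210 ± 1.15 CPM (0.047, SE 0.039, adjusted p = 0.470), and ABL1 and CASK had 0.16 (SE 0.072, adjusted p = 0.139) and 0.072 (SE 0.074, adjusted p = 0.589). Of the 12 cadherin and catenin genes, on which PTPRK and PTPRM act at contacts, 5 were tested and none was called, with a median of 0.061. CDH1, CDH2 and CDH5 had no counts, and CTNNA1 was at −0.078 (SE 0.12, adjusted p = 0.730), CTNND1 at 0.16 (SE 0.15, adjusted p = 0.553) and CDH4 at 0.061 (SE 0.34, adjusted p = 0.939). At an unadjusted p under 0.05 there were 6 of the 10 intracellular partners (ABL1, ERC1, ERC2, JUP, PPFIA1 and PPFIBP1) and 1 of the 5 cadherin and catenin genes (JUP). The share of all tested genes at that unadjusted limit is not given here, so nothing is read from these 2 counts. DESeq2 and the exact test of edgeR each called 1 intracellular partner, ERC1, and limma-voom called 0, and none of the 3 tools called a cadherin or catenin gene.

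**Figure D4:**
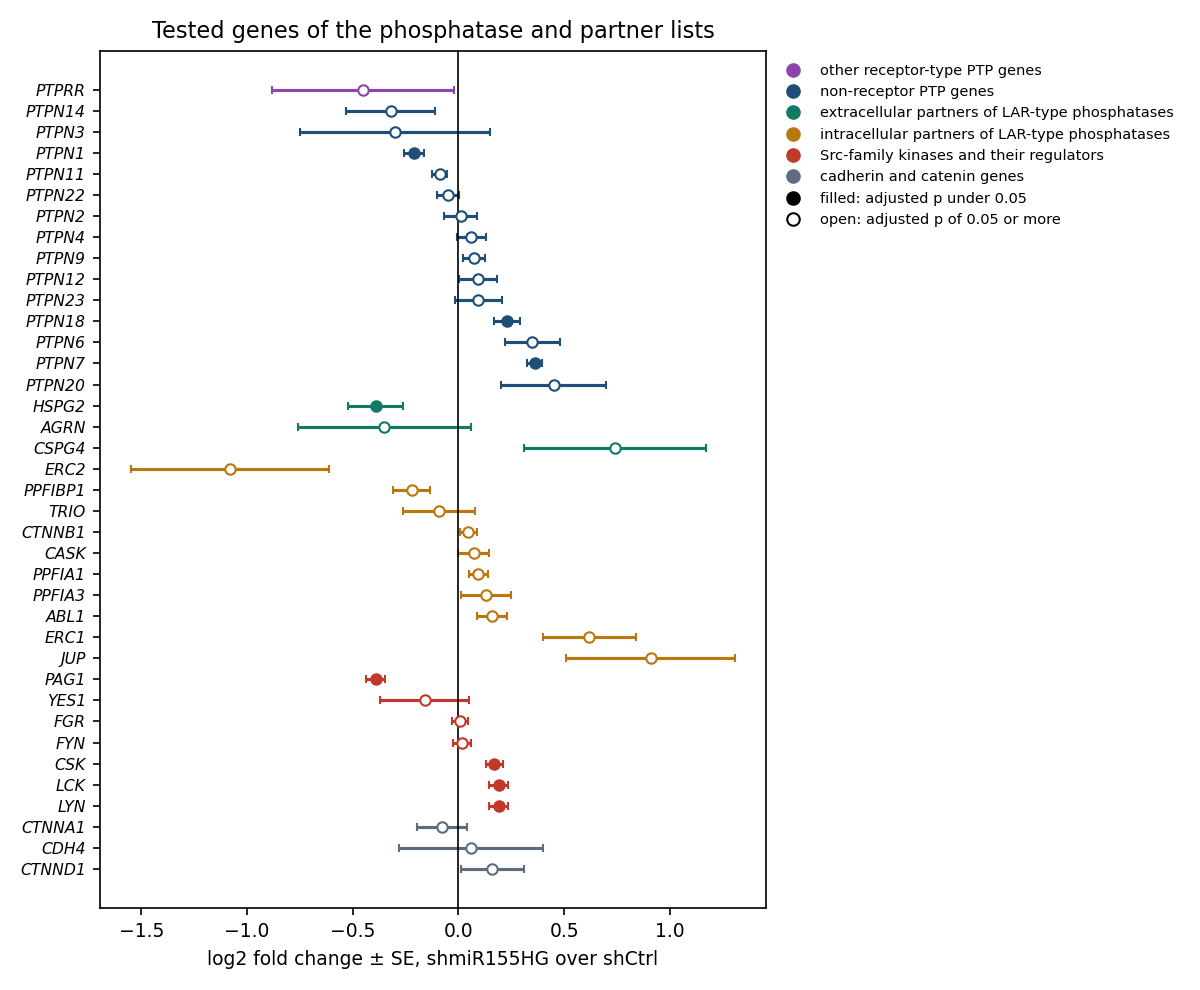
Log2 fold change of shmiR155HG over shCtrl with its SE (horizontal axis) for the 38 tested genes of the 6 lists of related phosphatases and partners, coloured by list, with filled points at an adjusted p under 0.05. The filled points lie between −0.39 and 0.36, and a gene on more than 1 list is drawn once.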

How the data were processed

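Poly(A) RNA of 3 shCtrl and 3 shmiR155HG libraries was analysed. The authors deposited 1 table of raw counts per gene with a column for each library, made by HISAT2 alignment to hg38 and StringTie, whose estimated coverage its companion script prepDE turns into counts, so reads of overlapping genes such as PTPRCAP and CORO1B were divided by an estimate. Versions, the annotation release and the strand setting were not given in the sources used here. Counts of 36601 genes were scaled by TMM, and the 12263 genes over 1 CPM in at least 2 libraries were tested with edgeR's quasi-likelihood test (edgeR 4.0.16, R 4.3.3) with Benjamini-Hochberg adjustment at 0.05. Library totals were 33454786 to 39157264 counts, and the upper limits given for genes without counts cover counting error only. The fit was tested on simulated data. The 10 genes and all lists were chosen with earlier results of these data known.

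Named were the 10 genes, MIR155HG, the 5 nearest tested neighbours of PTPRF on each side (1 of them, and 1 marker, are not reported here), the 5 genes most like it, and from each list of related genes every called gene and up to 4 of the most abundant others. Exons and 3′UTRs came from GENCODE v44, where 36366 of the 36601 gene IDs matched, and promoters and the miRNA from RefSeq. Lengths of canonical transcripts were added as an alternative after seeing the data. Other alternatives were the study's exact test (unadjusted P under 0.01 and a fold over 1.2), DESeq2 1.42.0, limma-voom (limma 3.58.1), other scalings and filters, a replicate block, and each library left out in turn.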

Additional observations from a re-analysis of the deposited data

How the results depend on the processing

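The log2 fold changes of the 7 tested genes moved by less than 1 SD between replicates under each of the 15 alternatives. With the study's exact test and thresholds, 552 genes were called higher and 467 lower in place of 890 and 984. Of the 10 genes, 2 were called higher, as in the main fit, and 0 lower in place of 1. The 2 called higher were PTPRF and PTPRK, since PTPRCAP did not reach the fold limit. In the related lists 2 genes were called higher in place of 5. This rule asks for a fold over 1.2, which PTPRC, PTPRCAP, PTPN1, PTPN18, LCK, LYN and CSK do not reach. DESeq2 and the exact test at an adjusted p under 0.05 each called 3 of the 10 genes higher, adding PTPRK, and 1 lower. Across all genes these tools called 970 and 938 higher, and 1038 and 971 lower.

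With 1 library left out, 580 to 891 genes were called higher and 674 to 917 lower, the fewest higher without shmiR155HG replicate 2. Of the 10 genes, 2 were called higher and 1 lower each time, and of the related lists 4 to 7 were called higher and 2 to 3 lower. MED8 turned to −0.02 without shmiR155HG replicate 3. KDM4A-AS1 turned to 0.065, 0.08 and 0.071 without shCtrl replicate 2, shmiR155HG replicate 2 and shmiR155HG replicate 3, and ARTN to 0.095 and 0.049 without shCtrl replicate 3 and shmiR155HG replicate 3. Over all libraries left out, MED8 ran from −0.02 to 0.079, KDM4A-AS1 from −0.44 to 0.08 and ARTN from −0.46 to 0.095. None of these 3 was called, and the cause was not tested.

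No pairing by replicate number was seen, as the deviations of same-numbered libraries correlated at −0.0128, 0.0121 and 0.0197. These values do not settle whether the libraries were made in pairs. With the replicate block, 829 genes were called higher and 909 lower, PTPRF stood at 2.98, and HSPG2 lost its call (adjusted p = 0.064 by edgeR). Genes with few counts, such as PTPRK, PTPRM, PTPRS and PTPRD, are limited by depth.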
